A study of Mus musculus with 8 samples.

Results

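The collagens and the other genes of the interstitial matrix were followed in primary cells from mouse ovarian follicles, after small interfering RNA (siRNA) against the transcription factor FOXL2 and after 17β-estradiol (E2). They are 48 genes, picked by name as collagen chains, elastic fibre and adhesive glycoproteins, small proteoglycans, matricellular proteins and lysyl oxidases, and each was found through its Entrez gene ID among the 24232 genes that the array could name. The rule that picks them uses no measured value, although earlier results of these data were known when it was written. The cells came from preantral follicles of 8-week-old female Swiss mice, with 5 mice pooled for each replicate, and were mostly granulosa cells grown as a monolayer for 9 days in all. All cells were taken off androstenedione and put into medium with charcoal-treated serum 2 days before the end, and all were transfected with a total of 12 pmol siRNA together with a pDsRed plasmid and then lysed. The labels put lysis 24 h after medium was added back to the transfected wells, with E2 in the last 10 h, whereas E2 is elsewhere described as following 24 h of siRNA, so the total time on siRNA is not settled here. There were 4 groups with 2 arrays each. Cells given a non-targeting siRNA pool (control siRNA) received vehicle or 100 nM E2 for the last 10 h, and so did cells given a pool against Foxl2 (FOXL2 siRNA). Arrays 1 and 2 of a group below are its replicates as numbered in the labels. Nothing in the design separates the siRNA pool's action on its target from any other action of that pool, since it was 1 pool.

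The interstitial matrix is built from fibrils of collagens I, III and V, onto which fibril-associated collagens and small leucine-rich proteoglycans dock, and from microfibrils and elastic fibres held together by fibrillins and fibulins. Collagen IV forms the sheet-like network of basement membranes, collagen VI forms beaded filaments that link cells and basement membranes to the surrounding fibrils, and lysyl oxidases cross-link collagen and elastin. In the ovarian follicle the granulosa cells sit on a basal lamina rich in collagen IV and laminins, and the collagen IV chains of that lamina are known to change as follicles grow.

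Levels are given as log2 of the scaled array signal, so that 1 unit is a doubling, and those of the members were compared between groups for 1 gene at a time, not between genes, because probes differ in brightness. Ratios of chain pairs were compared only in their change between the siRNAs. The summed signals of marker lists given below are on the linear scale, so the brightest genes of a list weigh most in them. A gene is called here when its adjusted p in limma, over the 15645 genes bright enough to test, was under 0.05, and the words rose and fell are kept for called genes. Of the 48 members, 39 were bright enough to test and 36 were well above background on all 8 arrays. The 9 that were not tested were Col5a3, Col8a2, Col6a3, Col9a1, Col9a3, Col14a1, Col15a1, Thbs2 and Postn. Col15a1 was well above background on 4 arrays, Col14a1 on 3, Col8a2, Col9a1 and Postn on 1 each, and Col5a3, Col6a3, Col9a3 and Thbs2 on 0. Among the tested members, Col18a1 was well above background on 6 arrays, Eln on 4 and Fmod on 1, so their values lie at the edge of what the array measures. No probe was saturated, and between 51.4% and 55.6% of all probes of an array were well above background.

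The gene-level signal of the targeted gene did not follow the labels, and its probes disagreed. Foxl2, averaged over its 2 probes, read 13.46 and 13.02 with vehicle and 12.95 and 12.77 with E2 on the control siRNA arrays, against 13.41 and 13.40 with vehicle and 13.13 and 12.97 with E2 on the arrays labelled FOXL2 siRNA. That is a log2 change of 0.18 ± 0.10 (SE, 4 arrays against 4; adjusted p = 0.334), in the direction opposite to a knockdown. Its dimmer probe fell by 0.97 (adjusted p = 0.0200 in a limma fit of single probes), while its brighter probe read 0.18 higher (adjusted p = 0.364). Of the granulosa genes that FOXL2 is known to activate, which were picked here after their values were seen, Fst (follistatin) fell by 2.02 (adjusted p = 0.000226) and Cyp19a1 (aromatase) gave -0.75 (adjusted p = 0.0819) with no overlap between the 4 arrays of each siRNA. Every direction below is that of the arrays labelled FOXL2 siRNA. The replicates of a group correlated between 0.989 and 0.992 over all genes tested.

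On the arrays labelled FOXL2 siRNA, over both treatments, 12 of the 39 tested matrix genes rose and 4 fell, where 12.6% of all tested genes were called, 6.39% higher and 6.18% lower. Collagen VI moved most, with Col6a1 3.81-fold and Col6a2 4.14-fold higher. The paired chains Col4a5 and Col4a6 of collagen IV came close to doubling, at 1.97-fold and 2.02-fold, and the fibril collagens Col3a1 and Col5a2 rose 1.68-fold and 1.76-fold. Thrombospondin 1 (Thbs1) and Col27a1 fell to 0.446 and 0.459 of their control level. The median log2 change was 0.28 over the 39 members and -0.003 over all 15645 genes.

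The 4 arrays labelled FOXL2 siRNA did not overlap the 4 control siRNA arrays for 12 members that were higher and 4 that were lower, where the arrays did not overlap for 20.9% of all tested genes (10.1% higher and 10.7% lower). Of these 16, Col1a1 and Col4a2 were not called, and of the called genes Col4a1 and Col16a1 did overlap. With vehicle alone, where 6.53% of all tested genes were called (3.6% higher and 2.93% lower), 7 members rose (Col3a1, Col5a2, Col4a5, Col4a6, Col6a1, Col6a2 and Loxl2) and 2 fell (Col27a1 and Thbs1). With E2 alone, where 4.38% were called (2.25% higher and 2.13% lower), 5 members rose (Col4a5, Col4a6, Col6a1, Col6a2 and Col16a1) and 3 fell (Col27a1, Fbln5 and Thbs1). The 2 comparisons have no array in common. In bulk RNA of this kind, a change in the share of cells of 1 type and a change in RNA per cell cannot be told apart.

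**Figure D1:**
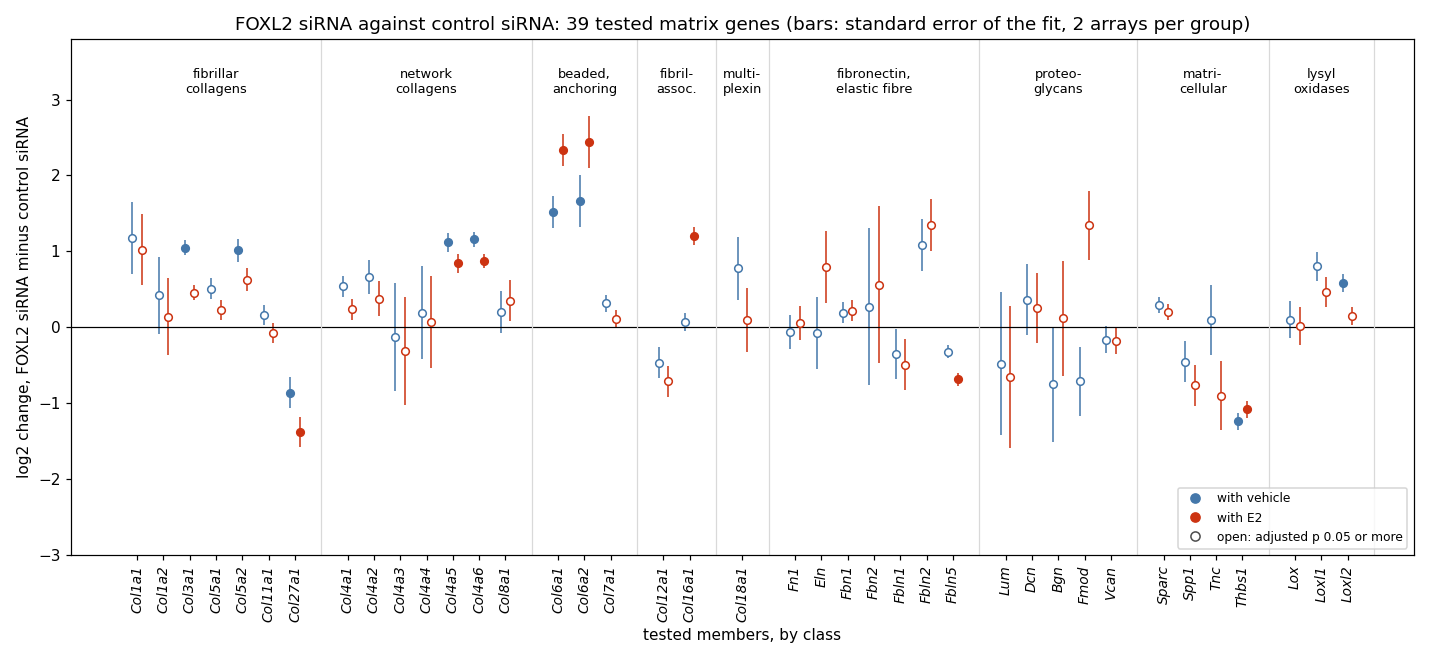
Log2 change (vertical axis) of each of the 39 tested matrix genes, grouped by class, on arrays labelled FOXL2 siRNA against control siRNA, with vehicle (blue) and with E2 (red), 2 arrays per group, with the standard error of the fit as bars and filled points for adjusted p under 0.05. Col6a1 and Col6a2 stand highest under both treatments, and Thbs1 and Col27a1 lowest among the filled points.

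Collagen VI filaments need an alpha-1 and an alpha-2 chain, encoded by Col6a1 and Col6a2, and a further chain that is most often the product of Col6a3. Col6a2 read 4.48 and 4.40 with vehicle and 4.14 and 4.07 with E2 on the control siRNA arrays, and 6.48 and 5.72 with vehicle and 6.94 and 6.15 with E2 on the arrays labelled FOXL2 siRNA. Its log2 change was 2.05 ± 0.24 (SE, 4 arrays against 4; adjusted p = 0.00182). All 4 arrays labelled FOXL2 siRNA lay above all 4 control arrays. Col6a1 read 8.62 and 8.42 (vehicle) and 8.26 and 8.16 (E2) on the control arrays, against 10.31 and 9.77 (vehicle) and 10.79 and 10.31 (E2) on the FOXL2 siRNA arrays, a log2 change of 1.93 ± 0.15 (SE, 4 arrays against 4; adjusted p = 0.000380). Their log2 ratio within an array was 4.09 ± 0.06 (SD, 4 arrays) with control siRNA and 3.97 ± 0.16 (SD, 4 arrays) with FOXL2 siRNA, and it differed by -0.12 between the siRNAs (exact permutation test of 4 arrays against 4, two-sided, p = 0.257; p = 0.294 adjusted over the 8 chain pairs compared, where the smallest p of the test is 0.0286, so that no pair could pass alone and the p does not show that the ratio held). The change was larger with E2 than with vehicle for both, 2.34 against 1.52 for Col6a1 and 2.44 against 1.66 for Col6a2, but the difference of 0.82 for Col6a1 (95% interval 0.12 to 1.52) had an adjusted p of 0.881 and that of 0.78 for Col6a2 (95% interval -0.34 to 1.90) one of 1.000. Col6a3 was well above background on 0 of 8 arrays, Col6a4 and Col6a6 on 0 and Col6a5 on 1, so the partner chain was not measured here. Of the 2 Col6a2 probes only 1 was bright enough to test. Over both treatments the calls of both genes held without any single array. The change then lay between 1.79 and 2.06 for Col6a1 and between 1.85 and 2.25 for Col6a2. With vehicle alone neither gene kept its call in every such fit. There the change lay between 1.24 and 1.79 for Col6a1 and between 1.28 and 2.04 for Col6a2. With E2 alone, the Col6a2 call was lost without E2 control array 1 (adjusted p = 0.0758) or array 2 (0.0682). Col7a1, the anchoring fibril collagen in the same class, read between 9.03 and 9.10 with control siRNA and between 9.09 and 9.45 with FOXL2 siRNA and was not called (0.21, adjusted p = 0.145).

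Col6a1 and Col6a2 lie next to each other on mouse chromosome 10, on the same strand, with no other protein-coding gene between them and starts 102640 bases apart in the RefSeq annotation of GRCm38.p6. Their promoter windows, 250 bases before to 50 bases after the start, are shown because these 2 members changed most. The window of Col6a1 is chr10:76725995-76726294, minus strand, and that of Col6a2, the first of the pair of starts listed for it, is chr10:76623355-76623654, minus strand. Each is written 5′ to 3′ along the gene's strand, and capitals mark matches on either strand to the 3 motifs searched.
Col6a1: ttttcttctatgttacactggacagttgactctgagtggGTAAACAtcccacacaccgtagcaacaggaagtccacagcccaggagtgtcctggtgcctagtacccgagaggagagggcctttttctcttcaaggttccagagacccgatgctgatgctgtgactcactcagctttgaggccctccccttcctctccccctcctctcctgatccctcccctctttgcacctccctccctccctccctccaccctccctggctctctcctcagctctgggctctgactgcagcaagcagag
Col6a2: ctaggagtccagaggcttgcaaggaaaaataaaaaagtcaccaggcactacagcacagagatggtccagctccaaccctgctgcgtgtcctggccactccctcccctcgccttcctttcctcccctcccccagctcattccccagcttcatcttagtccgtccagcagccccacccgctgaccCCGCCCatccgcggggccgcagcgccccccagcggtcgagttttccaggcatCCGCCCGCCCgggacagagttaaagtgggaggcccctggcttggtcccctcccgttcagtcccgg
The Col6a1 window held 1 match to the forkhead motif GTAAACA, beginning 211 bases before the start, and no GC box. The Col6a2 window held 3 matches to the GC box GGGCGG on its opposite strand, beginning 67, 15 and 11 bases before the start, the last 2 of which overlap in the letters shown. Neither window held the estrogen response element GGTCANNNTGACC. Of all 32851 RefSeq promoter windows of this length, 3.65% held the forkhead motif, 35.7% the GC box and 0.0700% the estrogen response element. Over the 33 members that had a window, 1 held the forkhead motif (Col6a1), 22 the GC box and 0 the estrogen response element. A member was counted if any of its windows matched, whereas the shares are of single windows, so the counts and shares are not on the same footing. A match is a description of the letters and was not tested as a binding site.

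**Figure D2:**
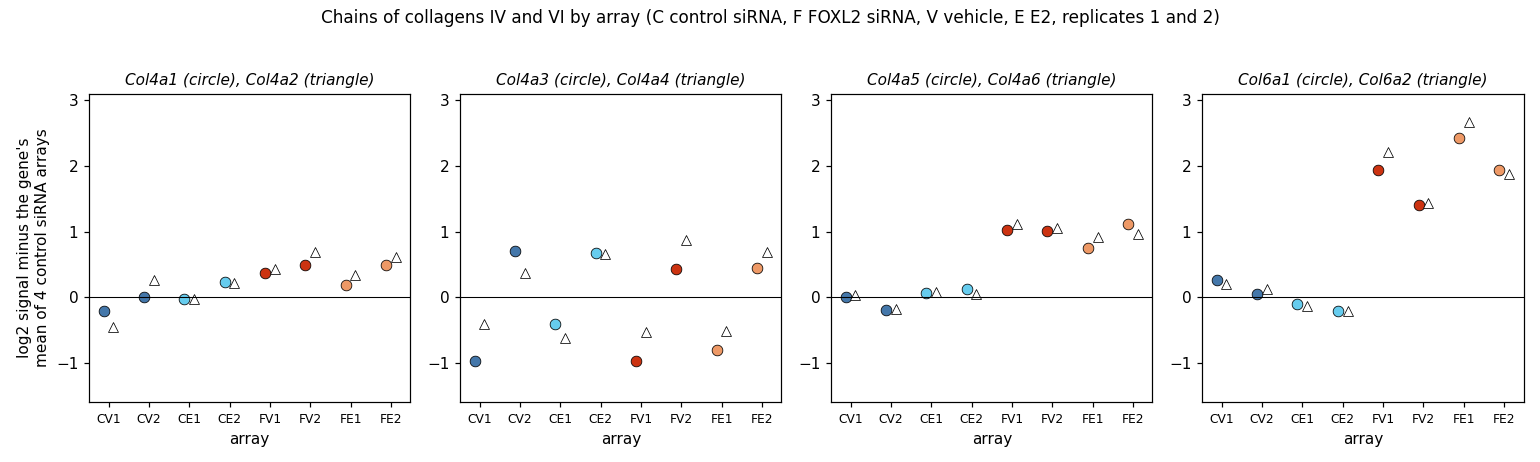
Log2 signal of collagen IV and VI chains on each of the 8 arrays (vertical axis), minus the gene's mean over the 4 control siRNA arrays, with 1 panel per chain pair. Col6a1 with Col6a2 and Col4a5 with Col4a6 are both higher on the 4 arrays labelled FOXL2 siRNA, whereas Col4a3 and Col4a4 separate the arrays within each group.

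Among the network collagens Col4a5, Col4a6 and Col4a1 were called and the other tested chains were not. Col4a5, whose product joins either those of Col4a3 and Col4a4 or that of Col4a6, read 10.77 and 10.58 (vehicle) and 10.84 and 10.89 (E2) on the control arrays, against 11.79 and 11.78 (vehicle) and 11.52 and 11.88 (E2) on the FOXL2 siRNA arrays. Its log2 change was 0.98 ± 0.09 (SE, 4 arrays against 4; adjusted p = 0.000737). Col4a6, the partner of Col4a5 in the second of these networks, read 10.72, 10.51, 10.77 and 10.74 on the control arrays and 11.80, 11.74, 11.60 and 11.66 on those labelled FOXL2 siRNA, each time the vehicle arrays first. It changed by 1.01 ± 0.07 (SE, 4 arrays against 4; adjusted p = 0.000222). For both genes all 4 arrays labelled FOXL2 siRNA lay above all 4 control arrays, and the log2 ratio of Col4a5 to Col4a6 moved by -0.04 (exact permutation test, 4 arrays against 4, two-sided, p = 0.629). The brighter of the Col4a6 probes changed by 1.04 (adjusted p = 0.000315 in the fit of single probes) and the dimmer one by 0.36 (adjusted p = 0.210), so the gene value rests on the first. Both calls held in each fit that left out 1 array over both treatments. With E2 alone Col4a5 lost its call without E2 control array 1 (adjusted p = 0.101) or array 2 (0.0786) or E2 FOXL2 siRNA array 2 (0.0654).

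Col4a1, which with Col4a2 builds the collagen IV found in nearly all basement membranes, read 13.41 and 13.62 (vehicle) and 13.60 and 13.85 (E2) on the control arrays, against 13.99 and 14.12 (vehicle) and 13.80 and 14.11 (E2) on the FOXL2 siRNA arrays. It rose by 0.39 ± 0.10 (SE, 4 arrays against 4; adjusted p = 0.0414), but the groups overlapped at the control array of 13.85. This call was kept in 1 of 8 fits that left out an array, the one without E2 FOXL2 siRNA array 1, and the highest adjusted p was 0.129, without vehicle FOXL2 siRNA array 2. Col4a2 read between 13.37 and 14.09 with control siRNA and between 14.16 and 14.52 with FOXL2 siRNA. Its groups did not overlap, yet its change of 0.52 ± 0.16 (SE, 4 arrays against 4; adjusted p = 0.0777) was not called. Col4a3 and Col4a4, the chains of the mature glomerular type of network, gave changes of -0.22 (95% interval -1.39 to 0.94) and 0.13 (95% interval -0.88 to 1.13), neither called. The 2 arrays of a group differed by 1.08 to 1.68 for Col4a3 and by 0.78 to 1.39 for Col4a4, with array 1 the lower in every group for both. The change of the ratio of Col4a5 to Col4a3 was 1.20 (exact permutation test, 4 arrays against 4, two-sided, p = 0.114; 0.274 adjusted over 8 pairs). Col8a1, a short-chain network collagen, gave 0.27 (adjusted p = 0.421).

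Col4a5 and Col4a6 are a head-to-head pair on the X chromosome, read from opposite strands, with starts 1343 bases apart and no protein-coding gene between them. The windows are shown because both genes rose. That of Col4a5 is chrX:141475169-141475468, plus strand, and that of Col4a6 is chrX:141474027-141474326, minus strand, both from RefSeq on GRCm38.p6, with GC boxes in capitals.
Col4a5: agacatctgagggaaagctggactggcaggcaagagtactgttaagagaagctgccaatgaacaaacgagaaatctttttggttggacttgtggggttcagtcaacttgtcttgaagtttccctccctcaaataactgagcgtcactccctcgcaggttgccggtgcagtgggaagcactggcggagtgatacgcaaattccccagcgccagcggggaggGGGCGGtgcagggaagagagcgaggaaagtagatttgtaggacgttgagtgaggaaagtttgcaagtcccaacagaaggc
Col4a6: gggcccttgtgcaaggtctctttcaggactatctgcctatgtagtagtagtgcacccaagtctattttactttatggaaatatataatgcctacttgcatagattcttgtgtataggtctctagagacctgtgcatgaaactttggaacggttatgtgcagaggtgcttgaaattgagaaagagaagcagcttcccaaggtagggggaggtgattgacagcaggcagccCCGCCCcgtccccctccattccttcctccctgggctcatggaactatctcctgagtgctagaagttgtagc
Each window held 1 GC box, beginning 30 bases before the start of Col4a5 and 21 bases before that of Col4a6, and the motif lay on the opposite strand in the Col4a6 window. Neither held the forkhead motif or the estrogen response element. Col4a1 and Col4a2 form another head-to-head pair, on chromosome 8, whose starts lie 21 bases apart so that their windows overlap by 78 bases. Col4a3 and Col4a4 on chromosome 1 are neighbours too, as are Col3a1 with Col5a2 on chromosome 1 and Dcn with Lum on chromosome 10, with 0 other genes listed between the members of each of these pairs.

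Among the fibrillar collagens, 3 of 7 tested members rose and 1 fell. Col3a1, whose product mixes with collagen I in compliant tissues, read 10.03 and 9.96 (vehicle) and 10.32 and 10.46 (E2) on the control arrays, against 10.95 and 11.13 (vehicle) and 10.80 and 10.88 (E2) on the FOXL2 siRNA arrays. The change was 0.75 ± 0.07 (SE, 4 arrays against 4; adjusted p = 0.000832), with 1.05 under vehicle (called) and 0.45 under E2 (adjusted p = 0.0522). Col5a2, a chain of the collagen V that nucleates fibrils and the chromosomal neighbour of Col3a1, read 9.27, 9.21, 9.30 and 9.56 on the control arrays and 10.15, 10.35, 9.87 and 10.24 on those labelled FOXL2 siRNA, each time the vehicle arrays first. It changed by 0.82 ± 0.11 (SE, 4 arrays against 4; adjusted p = 0.00283), again more under vehicle (1.01) than under E2 (0.63), and the difference of -0.39 between treatments had a 95% interval of -0.89 to 0.12. With vehicle alone the Col5a2 call was lost without vehicle control array 2 (adjusted p = 0.0624) or vehicle FOXL2 siRNA array 2 (0.0760). Col5a1, the other collagen V chain, lay between 9.61 and 9.78 with control siRNA and between 9.87 and 10.32 with FOXL2 siRNA. It rose by a smaller 0.37 ± 0.09 (SE, 4 arrays against 4; adjusted p = 0.0412), a call kept in 1 of 8 fits without an array (without vehicle FOXL2 siRNA array 2; highest adjusted p = 0.132, without E2 control array 2).

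Col27a1, a fibrillar collagen best known from cartilage, went the other way. It read 7.50 and 7.46 (vehicle) and 8.16 and 7.74 (E2) on the control arrays, against 6.84 and 6.38 (vehicle) and 6.53 and 6.60 (E2) on the FOXL2 siRNA arrays, and no FOXL2 siRNA array reached the lowest control array. The change was -1.12 ± 0.14 (SE, 4 arrays against 4; adjusted p = 0.00244). With vehicle alone, its call (adjusted p = 0.0457) was lost in each of the 8 fits that left out an array (adjusted p from 0.0507 to 0.223, the highest without vehicle FOXL2 siRNA array 2), and with E2 alone it was lost without E2 control array 1 (0.0917) or either E2 FOXL2 siRNA array (0.0507 and 0.0629). Col1a1, the main chain of collagen I, gave one of the larger estimates of the class, 1.10 ± 0.33 (SE, 4 arrays against 4; adjusted p = 0.0739), and its arrays did not overlap (8.40 to 9.40 against 9.51 to 10.47). It was not called here. The 2 arrays of each group differed by 0.83 to 0.98, and array 1 was the higher in every group. Between arrays of the same number and treatment, FOXL2 siRNA against control siRNA, the change was 1.00 to 1.25. Its partner Col1a2 gave 0.28 (95% interval -0.55 to 1.11) with overlapping groups, and the ratio of Col1a1 to Col1a2 moved by 0.82 (exact permutation test, two-sided, 4 arrays against 4, p = 0.0857; 0.274 adjusted over 8 pairs). Col11a1 gave 0.04 (adjusted p = 0.837).

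**Figure D3:**
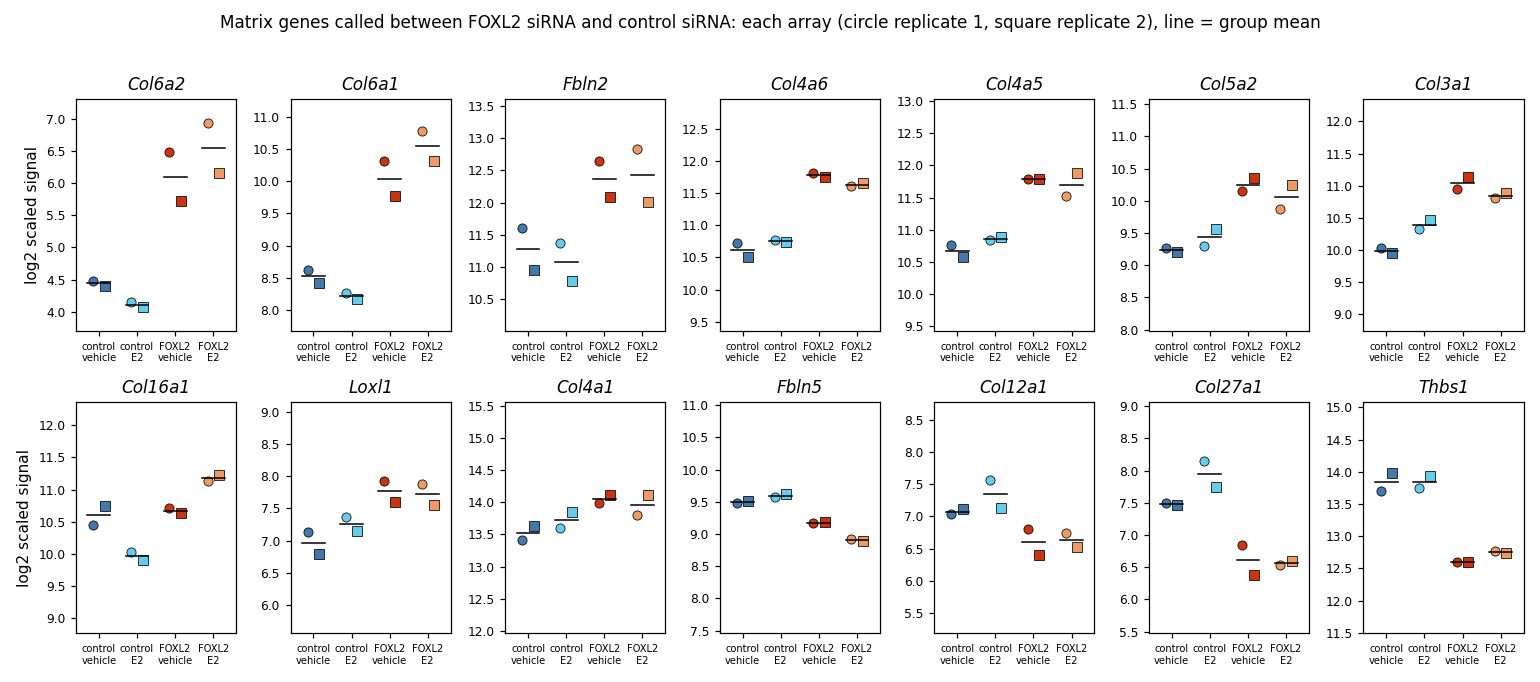
Log2 scaled signal (vertical axis, the same span of 3.6 units in each panel) of 14 called matrix genes on each array, by siRNA and treatment, with circles for replicate 1, squares for replicate 2 and lines for group means. The upper row and Col16a1, Loxl1 and Col4a1 have higher means on the arrays labelled FOXL2 siRNA, and Fbln5, Col12a1, Col27a1 and Thbs1 lower ones. For Col16a1 and Col4a1 the arrays of both siRNAs overlap.

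The 2 tested fibril-associated collagens moved in opposite directions. Col16a1, which lies on fibrils and near basement membranes, read 10.46 and 10.74 with vehicle and 10.04 and 9.91 with E2 on the control siRNA arrays, and 10.71 and 10.63 with vehicle and 11.13 and 11.22 with E2 on the arrays labelled FOXL2 siRNA. Over both treatments it rose by 0.64 ± 0.08 (SE, 4 arrays against 4, adjusted p = 0.00266). With E2 it rose by 1.20 (adjusted p = 0.00282). With vehicle it differed by 0.07 (95% interval -0.20 to 0.34, adjusted p = 0.817) and the groups overlapped. The difference between these 2 changes, 1.13, was not called (adjusted p = 0.0582). Of its 3 tested probes, 2 were called, at 0.64 and 0.68, and the dimmest gave 0.45 (adjusted p = 0.112). Col12a1, another fibril-associated collagen, read 7.04 and 7.11 (vehicle) and 7.56 and 7.14 (E2) on the control arrays, against 6.80 and 6.40 (vehicle) and 6.74 and 6.52 (E2) on the FOXL2 siRNA arrays. It fell, by -0.59 ± 0.15 (SE, 4 arrays against 4; adjusted p = 0.0361), but 6 of the 8 fits that left out an array lost the call, with the highest adjusted p, 0.118, without E2 control array 1. Of the 2 multiplexins Col18a1 was tested, and it gave 0.43 (95% interval -0.25 to 1.12).

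Among fibronectin and the elastic fibre genes, Fbln2 rose, Fbln5 fell and the other 5 tested members were not called. Fbln2, a fibulin of basement membranes and elastic fibres, read 11.60 and 10.96 (vehicle) and 11.37 and 10.78 (E2) on the control arrays, against 12.64 and 12.08 (vehicle) and 12.83 and 12.02 (E2) on the FOXL2 siRNA arrays. The groups did not overlap and the change was 1.21 ± 0.24 (SE, 4 arrays against 4; adjusted p = 0.0165). That call was lost without vehicle control array 2 (adjusted p = 0.0528), E2 control array 2 (0.0629) or vehicle FOXL2 siRNA array 1 (0.0554). Fbln5, a fibulin needed for elastic fibre assembly, had the smallest spread within groups of all members, with the 2 arrays of a group within 0.06 of each other. It read 9.48, 9.52, 9.57 and 9.62 on the control arrays and 9.17, 9.19, 8.93 and 8.88 on those labelled FOXL2 siRNA, each time the vehicle arrays first. This gave a change of -0.51 ± 0.06 (SE, 4 arrays against 4; adjusted p = 0.00249), which was -0.69 with E2 (called) and -0.32 with vehicle (adjusted p = 0.0875). The E2 call of Fbln5 was lost without either E2 control array (0.0635 and 0.0655) or E2 FOXL2 siRNA array 2 (0.0638). Fn1, the fibronectin gene, gave -0.01 (95% interval -0.38 to 0.36), and Fbn1, the main fibrillin, 0.20 (95% interval -0.03 to 0.44). Fbln1 gave -0.43 (adjusted p = 0.304), Fbn2 0.41 (adjusted p = 0.777) and Eln 0.36 (adjusted p = 0.558).

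Of the 4 tested matricellular genes, which encode proteins that modulate cell contact with the matrix, 1 was called. Thbs1, a secreted inhibitor of angiogenesis that can activate latent TGF-beta, read 13.70 and 13.98 (vehicle) and 13.74 and 13.93 (E2) on the control arrays, against 12.59 and 12.60 (vehicle) and 12.76 and 12.74 (E2) on the FOXL2 siRNA arrays. It fell by 1.17 ± 0.08 on the log2 scale (SE, 4 arrays against 4; adjusted p = 0.000250), the second smallest adjusted p among the members, after Col4a6. Its call held with vehicle, with E2 and over both in each fit that left out an array. Spp1 (osteopontin) gave -0.61 (adjusted p = 0.0751), Tnc (tenascin C) -0.40 (adjusted p = 0.490) and Sparc (osteonectin) 0.25 (adjusted p = 0.0674).

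None of the 5 proteoglycans was called over both treatments (limma; 0 of 5 at an unadjusted p under 0.05 as well). Decorin (Dcn) gave 0.31 (95% interval -0.46 to 1.07), lumican (Lum) -0.57 (-2.11 to 0.97), biglycan (Bgn) -0.32 (-1.56 to 0.92), fibromodulin (Fmod) 0.31 (-0.43 to 1.06) and versican (Vcan) -0.17 (-0.47 to 0.12). All but the last of these intervals span more than 1 log2 unit. Among the lysyl oxidases, 2 of 3 rose. Loxl1, which cross-links elastin, read 7.14, 6.79, 7.37 and 7.15 on the control arrays and 7.92, 7.61, 7.88 and 7.56 on those labelled FOXL2 siRNA, each time the vehicle arrays first. It rose by 0.63 ± 0.14 (SE, 4 arrays against 4; adjusted p = 0.0229), with 0.66 and 0.55 at its 2 probes (adjusted p = 0.0252 and 0.0695 in the fit of single probes). Loxl2, which cross-links collagen IV among others, lay between 13.20 and 13.58 with control siRNA and between 13.59 and 13.99 with FOXL2 siRNA. Its rise was 0.36 ± 0.08 (SE, 4 arrays against 4; adjusted p = 0.0297), and its 3 probes gave 0.38, 0.37 and 0.33 (adjusted p = 0.0456, 0.0504 and 0.103 in the fit of single probes). Both calls were lost in 5 of 8 fits that left out an array (highest adjusted p = 0.0900 and 0.0970, each without E2 control array 2), and so was the Loxl2 call with vehicle in 6 of 8 (highest 0.151, without vehicle control array 2). Lox itself gave 0.06 (95% interval -0.35 to 0.46).

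The members differed widely in how closely the 2 arrays of a group agreed. At one end Fbln5, Sparc, Col4a6, Col7a1, Col3a1, Loxl2, Fbn1 and Col11a1 stayed within 0.27 in every group. At the other Fbn2 differed by 1.21 to 3.14 within groups, Lum by 1.38 to 2.07, Col4a3 by 1.08 to 1.68 and Bgn by 0.22 to 2.08. Array 1 was the higher in every group for Fbn2 and Lum and the lower in every group for Col4a3. For Bgn the sign was mixed. Fmod, Eln and Col18a1, near background, differed by up to 0.88, 1.36 and 0.92. The summed signal of the smooth muscle markers fixed for this report (Acta2, Tagln, Cnn1, Myh11, Des, Pdgfrb and Rgs5) also separated the arrays within each group, from 13764 to 32077 units with control siRNA and vehicle, 13544 to 34507 with control siRNA and E2, 16157 to 34150 with FOXL2 siRNA and vehicle and 16121 to 32761 with FOXL2 siRNA and E2. Acta2 and Tagln, the brightest of these markers, read lower on array 1 in every group. Myh11 and Rgs5 were well above background on 0 arrays. The part of these markers in the spread of the matrix genes was not tested.

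**Figure D4:**
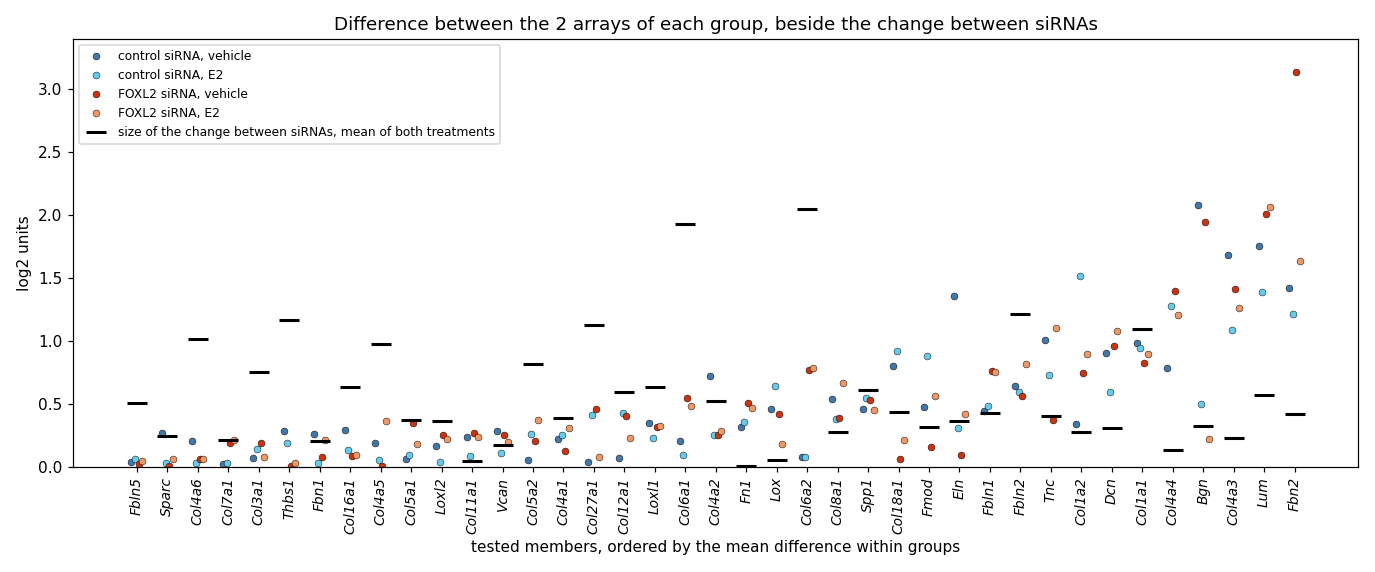
Size of the log2 difference between the 2 arrays of each group (coloured points, vertical axis in log2 units) for the 39 tested matrix genes, ordered by its mean, with a black bar for the size of the change between the siRNAs over both treatments. The bars stand well clear of the points for Col6a1, Col6a2, Thbs1, Col4a5, Col4a6 and Col27a1, and inside or under them for Col4a3, Lum and Fbn2. The points do not show which array was the higher.

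Genes that make, modify and bind the matrix were counted in the same way, beside the 12.6% of all tested genes that were called. Of 28 genes for collagen synthesis and processing, 24 were tested, 4 rose and 2 fell, with a median log2 change of 0.02. The 5 largest changes among those called were Loxl3, a lysyl oxidase, at -0.90 (adjusted p = 0.0428), Adamts14, a procollagen N-proteinase, at 0.60 (0.00368), Pcolce, an enhancer of procollagen C-proteinase, at 0.54 (0.00434), Serpinh1, the collagen-specific chaperone, at 0.39 (0.00779) and P3h3, a prolyl 3-hydroxylase family member, at -0.39 (0.0131). The receptors for collagen gave 0 genes that rose and 2 that fell of 9 tested (median -0.04). These were Itga2, an integrin chain that binds collagen, which fell by 2.62 (adjusted p = 0.000832), from between 7.22 and 8.30 on the control arrays to between 4.79 and 5.30, and Itga11, the integrin chain that binds fibrillar collagen on fibroblasts, at -0.81 (0.00400). Partners of elastic fibres and microfibrils gave 0 that rose and 2 that fell of 12 tested (median -0.15), Mfap5 at -1.55 (0.000542) and Efemp2, a fibulin that recruits lysyl oxidase, at -1.18 (0.00555).

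Of 17 further collagens outside the 48, 6 were tested. Col10a1, a network collagen of hypertrophic cartilage, fell by 1.79 (adjusted p = 0.00200), from 6.16 to 7.36 on the control arrays to 4.59 to 5.28. Col17a1, the transmembrane collagen of epithelial hemidesmosomes, rose (adjusted p = 0.00222) and was well above background on 1 of 4 control siRNA arrays and on all 4 arrays labelled FOXL2 siRNA. With vehicle, where it was not well above background on either control array, it was at least 4.94-fold higher (adjusted p = 0.0118), set against the lowest signal of a probe well above background on each control array.

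Some markers of other cell types rose on the same arrays, where 12.6% of all tested genes were called. Of the surface epithelium markers (Krt7, Krt19, Upk3b, Msln and Lgr5), 4 were tested and 2 rose, Msln by 2.07 (adjusted p = 0.000133) and Upk3b by 1.47 (0.00445), while Lgr5 was well above background on 0 arrays. Their summed signal was 512 to 568 units with control siRNA and vehicle, 614 to 750 with control siRNA and E2, 2467 to 2518 with FOXL2 siRNA and vehicle and 1775 to 2017 with FOXL2 siRNA and E2. Among 7 theca and steroidogenic markers, 4 were tested and 1 rose, Cyp11a1, by 0.89 (0.000195). Cyp17a1 gave 0.62 (0.110), Star 0.47 (0.105) and Ptch1 0.02 (0.971), none of them called. The sum went from between 20993 and 24001 on the control arrays to between 39038 and 41556, and Cyp11a1 alone makes up most of it. Lhcgr was well above background on 0 arrays. Of the fibroblast markers (Pdgfra, Tcf21, Thy1, Pdpn and Nr2f2), 0 of 3 tested were called, Pdgfra and Tcf21 were well above background on 0 arrays, and the sum was 1260 to 1963 on control and 1785 to 2785 on FOXL2 siRNA arrays. The endothelial, macrophage, smooth muscle and oocyte lists had 0 called genes of 2, 4, 5 and 1 tested. With so few genes at that share, 0 calls do not show that these cell types or the fibroblasts were unchanged. Of the granulosa markers, Inhbb rose by 0.80 (0.0185), Esr2 fell by 0.46 (0.0168) and Fst fell by 2.02 (0.000226), and the sum was 84299 to 93900 against 95680 to 102768. Fshr and Amh, which mark granulosa cells, were well above background on 0 arrays. The part of any of these in the matrix changes was not tested.

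E2 changed none of the 39 tested matrix genes past the threshold under either siRNA. In limma, 0 members were called with control siRNA, where 0.0192% of all genes were called and 4 members had an unadjusted p under 0.05, and 0 with FOXL2 siRNA, where 0.0128% were called and 3 members had an unadjusted p under 0.05. For the difference between these 2 effects, 0 members were called, with 6 at an unadjusted p under 0.05 and 0.243% of all genes called, and for the mean of both effects 0 members, with 1 at an unadjusted p under 0.05 and 0 of 15645 genes called. The median E2 change of the members was 0.10 under control siRNA, where that of all genes was -0.01, and -0.04 under FOXL2 siRNA, where it was -0.03.

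The members with the smallest p for E2 with control siRNA were Col16a1, Fmod and Col3a1. Col16a1, by the array values given above, was lower with E2 than with vehicle under control siRNA, by -0.63 ± 0.12 (adjusted p = 0.277), and higher with E2 under FOXL2 siRNA, by 0.51 ± 0.12 (adjusted p = 0.678), and in both cases the 2 E2 arrays lay outside the 2 vehicle arrays. The difference between these effects, 1.13 ± 0.17 (95% interval 0.75 to 1.52), had an adjusted p of 0.0582, above the threshold of 0.05, and without 1 array at a time it lay between 0.99 and 1.28 with adjusted p from 0.0803 to 0.274. Col3a1 was 0.40 higher with E2 under control siRNA (adjusted p = 0.687) and -0.20 under FOXL2 siRNA (95% interval -0.43 to 0.04), a difference of -0.59 (adjusted p = 0.363). Fmod read 3.94 and 4.42 (vehicle) and 2.59 and 1.71 (E2) on the control arrays, against 3.54 and 3.38 (vehicle) and 3.78 and 3.21 (E2) on the FOXL2 siRNA arrays. Its E2 change under control siRNA was -2.03 ± 0.45 (adjusted p = 0.507) and the difference of effects 2.06 ± 0.64 (adjusted p = 0.682), and only 1 of its 8 arrays was well above background.

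With FOXL2 siRNA the members with the smallest p after Col16a1 were Fbln5, at -0.27 ± 0.09 (adjusted p = 1.000), and Col6a1, at 0.51 ± 0.21 (adjusted p = 1.000). For the mean of both effects they were Fmod at -0.999 (95% interval -1.75 to -0.25), Col11a1 at 0.16 (-0.07 to 0.38) and Col27a1 at 0.21 (-0.12 to 0.54). For collagen VI the 95% interval of the mean E2 effect was -0.25 to 0.45 for Col6a1 and -0.50 to 0.62 for Col6a2, and for the pair Col4a5 and Col4a6 it was -0.16 to 0.26 and -0.16 to 0.16, so that a doubling in this mean lies outside these 4 intervals. For collagen VI the mean joins estimates of opposite sign, -0.31 with control siRNA and 0.51 with FOXL2 siRNA for Col6a1, and -0.33 and 0.45 for Col6a2. With FOXL2 siRNA alone the intervals were 0.01 to 1.003 for Col6a1 and -0.34 to 1.24 for Col6a2, and a doubling lies inside both.

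**Figure D5:**
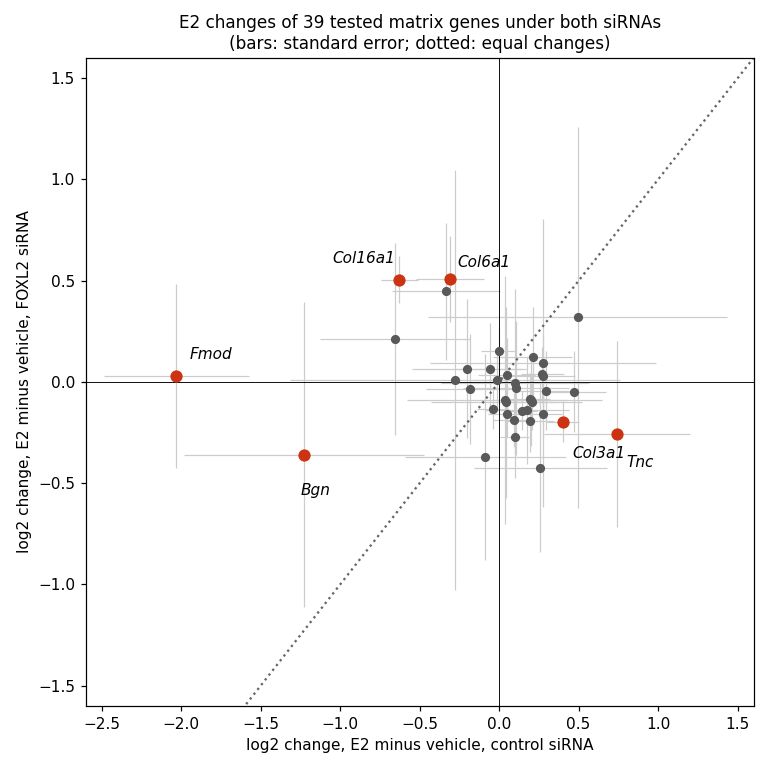
Log2 change with E2 under control siRNA (horizontal axis) and under FOXL2 siRNA (vertical axis) for the 39 tested matrix genes, with standard errors as bars and a dotted line where both are equal. Most points lie within 0.5 of zero on both axes, and Col16a1 at -0.63 and 0.51 lies well off the line, with no change called for any gene.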

How the data were processed

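Gene expression was measured on 8 one-colour Agilent mouse arrays (a single 8-array slide of the mm9 design, 62976 spots each, 2 arrays for each of 4 groups) from cells labelled with Cy3. All arrays share the slide and the scan, so neither could be tested as a batch, and the replicate number was examined as a block. The labels call the replicates biological, and each is a pool of 5 mice. The members, their classes and the related lists were chosen with earlier results of these data known. All 48 members and 22349 of 24232 gene IDs were matched to RefSeq symbols.

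The authors extracted the fluorescence, scaled each array to its 75th percentile in GeneSpring, averaged the transcripts of a gene and removed genes with a median fluorescence under 10. The deposited scanner files hold each spot's intensity, background-subtracted and detrended by the scanner software (the processed signal), with low values held at a floor. The deposited value table holds log2 values on the scale of the 75th percentile per gene, and 98.7% to 98.9% of its named rows on an array matched the scanner files within 0.001 after one constant per array. That table supplied the probe-to-gene pairing and served as an alternative. No columns of per-sample values were left out.

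From the intensity values, 3671 control spots and 42 probes marked non-uniform on any array were left out. The remaining 55639 probes were scaled to the 75th percentile of their array (275 to 367 units, with the mean restored), spots of a probe and probes of a gene ID were averaged on the linear scale, and the 15645 genes whose scaled signal had a median of 10 or more entered the tests, in log2. With limma 3.58.1 in R 4.3.3, 4 group means were fitted with an intensity trend (4 residual degrees of freedom) and contrasts were adjusted by the Benjamini-Hochberg method over all 15645 genes, two-sided, threshold 0.05. Standard errors and 95% intervals come from that fit. The fit was tested on simulated data. Single probes were fitted the same way. Ratios of chains within an array were compared by an exact permutation test over the arrays, whose smallest two-sided p for 4 against 4 arrays is 0.0286. They were added after the data were seen, and each compares changes within a gene pair, not levels. The array's number of replicates limits the precision, and intensities carry no counting error.

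The alternatives were normexp background correction (on the median spot signal, since the mean spot signal is not used here, with offset 50), quantile normalization, subtraction of each array's median, no filter on dim genes, a filter on dim probes, the brightest probe of a gene, the authors' value table, no intensity trend, fits of only the groups compared, the study's own rule (a log2 difference of at least 1 that exceeds 2 times the sum of both SDs), the replicate number as a block, and leaving out each array. Full array values were given for members called over both treatments, up to 14 by size of change, and, as no member was called for E2, values for the 3 members with the smallest p in each E2 comparison. Of each related list, up to 5 called genes were named. Promoter sequences are RefSeq windows of GRCm38.p6, searched on both strands with Python 3.11.15. Figures were drawn with matplotlib 3.10.9.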

Additional observations from a re-analysis of the deposited data

How the results depend on the processing

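With 2 arrays a group, small changes were hard to call. The 10 calls that held without any single array over both treatments were Col3a1, Col5a2, Col27a1, Col4a5, Col4a6, Col6a1, Col6a2, Col16a1, Fbln5 and Thbs1, and they held under the other processing choices too. Leaving out 1 array gave 11 to 15 members called over both treatments, 5 to 8 with vehicle, 4 to 8 with E2 and 0 in each E2 comparison. The share of all genes called in these fits is not given here, so these ranges are not set against it. Col5a1, Col12a1, Col4a1 and Loxl2 lost their calls with normexp (adjusted p = 0.0619, 0.0569, 0.0677 and 0.0545), with no filter on dim genes (0.0628, 0.0786, 0.0744 and 0.0535) and without the intensity trend (0.0782, 0.0530, 0.0907 and 0.0727), and Col4a1 also with quantile normalization (0.0604). With vehicle, Col27a1, Col6a2 and Loxl2 were lost with normexp (0.0664, 0.125 and 0.0530) and under some other choices. The study's own rule gave 7 members with vehicle, 5 with E2 (Col27a1, Col6a1, Col6a2, Col16a1 and Thbs1), 1 for E2 with control siRNA (Fmod, lower by that rule) and 0 for E2 with FOXL2 siRNA. Of all 15645 tested genes, that rule gave 460, 368, 71 and 34 in these 4 comparisons, in the same order. For members called in at least 1 comparison, no change that was called in either fit reversed its sign. Sign changes where neither fit made a call, as for most E2 changes, were not counted. Another scaling moved the median of all genes by at most 0.02. The cause of these losses was not tested.

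The labels and methods give a pool of mice for each replicate, but do not say whether 1 pool was divided over the 4 groups, and there are only 2 numbers, so the arrays were not treated as paired. The differences between replicates 1 and 2 correlated between groups at 0.33 to 0.45 over genes, and they had 1 sign in all 4 groups for 21 of the 39 tested members. With the replicate number as a block, 25 members were called over both treatments (17 higher and 8 lower, adding Col1a1, Col4a2, Col8a1, Dcn and Sparc, higher, and Fbln1, Lum, Spp1 and Tnc, lower, to the 16 called without it, with adjusted p = 2.0e-07 for Col1a1), 20 with vehicle (15 and 5), 20 with E2 (12 and 8), 1 for E2 with control siRNA (Col16a1, lower), 0 for E2 with FOXL2 siRNA and 3 for the difference of E2 effects (Col3a1, Col6a1 and Col16a1), where the block called 27.7%, 18.7%, 14.9%, 1.16%, 0.614% and 2.12% of all genes. It called 10 genes of the collagen synthesis list and 7 of the elastic fibre list. Under the block Col16a1 had an adjusted p of 0.0139 for E2 with control siRNA and 0.00153 for the difference of effects.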
